A study of Mus musculus with 95 samples.

Results

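The genes described are those for proteins of the cytosolic ribosome in mouse liver, chosen by symbol: those that start with Rpl or Rps and a number, Rplp0 to Rplp2 and Rpsa, leaving out the Rps6k kinases and pseudogenes. Of 16464 genes measured, 24 met this rule. Of these, 18 encode proteins of the ribosome itself, 8 of the small subunit (Rps3, Rps6, Rps9, Rps14, Rps15, Rps15a, Rps27 and Rpsa) and 10 of the large subunit (Rpl4, Rpl5, Rpl8, Rpl14, Rpl15, Rpl21, Rpl22, Rpl23, Rpl26 and Rpl31). The other 6 are paralogs or genes with a related symbol, namely Rpl3l, Rpl7l1, Rpl39l, Rps4l, Rps27l and Rps19bp1. The remaining ribosomal proteins, among them Rplp0, Rpl13a and Rps18 that often serve as reference genes in quantitative PCR, are not analysed here.

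The series holds 95 Affymetrix arrays, each hybridised with RNA from the middle of the left lateral liver lobe of male C57BL/6 mice, 10 weeks old and of 21 to 27 g, dosed by oral gavage. The drugs were amiodarone (AMD, an antiarrhythmic), valproic acid (VPA, an antiepileptic that also inhibits histone deacetylases) and tetracycline (TET, an antibiotic), and the title of the series names steatosis, the storage of fat in liver, as its subject. Groups of 4 arrays were taken on days 1 and 4 at the high dose, which was 60 mg/kg of AMD, 500 mg/kg of VPA and 133 mg/kg of TET. Groups of 5 arrays were taken on day 11 at that dose and at 6.7 and 20 mg/kg of AMD, 125 and 250 mg/kg of VPA, and 14.8 and 44 mg/kg of TET. Vehicle groups were of the same sizes: AMD and VPA shared 1 set of phosphate-buffered saline (PBS) vehicle groups, and TET had its own, given water with ascorbic acid. The AMD and VPA comparisons therefore share control arrays. No label states whether arrays come from different animals, and the spread behind the p-values may in part be technical.

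The values are log2 expression after RMA, and the correlation between any pair of arrays lay between 0.977 and 0.996. All 8 hepatocyte markers lay above the array median, with Alb at a mean of 13.79, and all 4 cholangiocyte markers measured lay below it. In 19 of the 24 ribosomal protein genes the mean lay above the median of all genes, 3.10. The other 5, Rpsa at 2.56, Rpl21 at 2.78, Rps15a at 2.75, Rpl3l at 2.48 and Rpl39l at 2.58, were close to background, where a fold change understates the change in RNA. The probe sets of different genes differ in brightness, so levels are compared only within a gene. Ribosomal protein genes have many nearly identical processed pseudogenes, and signal from such copies or from paralogs cannot be told apart from that of the named gene.

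The cytosolic ribosome translates nuclear mRNAs, and its small subunit reads the mRNA while its large subunit joins the amino acids. Most of its proteins are needed in equal numbers, and many of their mRNAs begin with a C followed by a run of pyrimidines, the 5' terminal oligopyrimidine (TOP) motif, through which the kinase mTOR and the protein Larp1 control their translation. Control of these proteins therefore acts largely on translation, which RNA levels do not show. In liver, which exports most plasma proteins, ribosomes are a large part of the cytoplasm.

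The start of each gene is shown for the 8 ribosomal protein genes called in a treated group, since the TOP motif lies there. Each run is 5′ to 3′ on the strand of the gene, from RefSeq on GRCm38.p6, and holds 20 bases before and 15 after the annotated start. Capitals mark the longest run of C and T that overlaps the 10 bases on each side of the start. For Rpl22 and Rps27l the table lists another start as well, and the upstream one is shown. For Rpl22 the table puts it after the other, at which the run is 4 bases. At the other start of Rps27l the run is 4 bases as well.
Rps6, chr4:86857353-86857387, minus strand: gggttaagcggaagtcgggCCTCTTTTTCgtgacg
Rpl14, chr9:120571497-120571531, plus strand: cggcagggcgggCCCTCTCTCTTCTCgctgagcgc
Rpl15, chr14:18270972-18271006, minus strand: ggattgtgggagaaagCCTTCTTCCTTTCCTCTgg
Rpl22, chr4:152324416-152324450, plus strand: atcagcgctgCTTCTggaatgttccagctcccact
Rps27l, chr9:66946066-66946100, plus strand: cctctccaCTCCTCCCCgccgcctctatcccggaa
Rpl5, chr5:107900508-107900542, plus strand: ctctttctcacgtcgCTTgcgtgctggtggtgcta
Rpl23, chr11:97782425-97782459, minus strand: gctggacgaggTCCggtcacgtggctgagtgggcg
Rpl7l1, chr17:46782642-46782676, minus strand: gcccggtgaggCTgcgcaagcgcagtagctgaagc

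A run of 10 pyrimidines stood at the start of Rps6, 14 at that of Rpl14 and 17 at that of Rpl15, against 3 at Rpl5, 3 at Rpl23 and 2 at Rpl7l1. The stretch shown for Rpl5 also opens with a longer run of pyrimidines. That run ends before the 10 bases searched and was not counted. Of the 15 genes for ribosome proteins with a promoter in the table, 8 (53.3%) had a C followed by at least 4 pyrimidines within 10 bases of a listed start. Over all measured genes 4643 of 13162 (35.3%) had one, and with only the start listed first the shares were 46.7% and 31%. The median longest run at that start was 9 bases in the 15 genes and 4 over all genes. In the whole window of 250 bases before to 50 after the start, searched on both strands, the ETS factor core CCGGAAG was held by 5 of the 15 (33.3%) and by 15.1% of all genes, the YY1 core AAGATGG by 3 (20%) and 7.53%, and the TATA box core TATAAA by 1 (6.67%) and 11.5%. The last letters of the ETS core, AAG, are the first of the YY1 core, so a match of one can share them with the other. A match describes the letters only, and a run near the start can lie wholly before it, as that shown for Rpl22 does.

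Few calls fell on the 24 ribosomal protein genes under any of the drugs. Over the 15 treated groups, each against its vehicle of the same day, 13 of 360 tests passed an adjusted p of 0.05 (limma, Benjamini-Hochberg over all genes), 8 higher and 5 lower. This was 3.61% of the tests of the 24 genes, close to the 3.1% over all genes in the same 15 comparisons. They fell in 6 groups and on 8 genes: Rps6, Rpl5, Rpl14, Rpl15, Rpl22 and Rpl23 of the ribosome, and the related Rpl7l1 and Rps27l. The largest change of a called gene was 0.53 on the log2 scale, and the other 16 genes passed in none of the 15. The median log2 fold change of the 24 lay between −0.05 and 0.06 in every treated group. Such a median can hide changes of single genes in opposite directions.

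**Figure D1:**
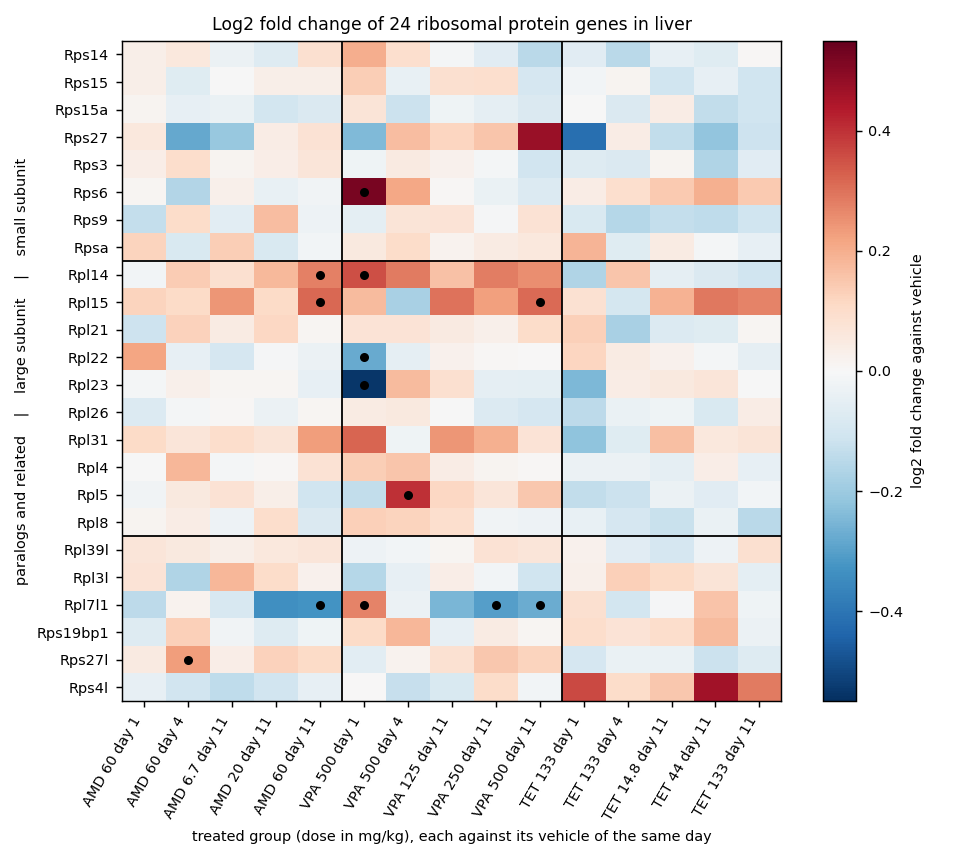
Log2 fold change of each of the 24 ribosomal protein genes (rows) in each of 15 treated groups against its vehicle (columns, doses in mg/kg), with a black point where the adjusted p was under 0.05. Most cells are pale, the darkest called ones are Rps6 and Rpl23 at VPA 500 on day 1, and no point lies in a TET column.

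VPA on day 1 was the treatment with the most calls: 5 of the 24 genes (20.8%) were called, where 15.7% of all genes were. Without an adjustment 33.3% of the 24 and 25.5% of all genes had a p under 0.05 (limma). The median absolute log2 fold change was 0.14 for the 24 and 0.11 for all genes. Rps6, Rpl14 and Rpl7l1 rose and Rpl23 and Rpl22 fell, so that proteins of the same particle moved in opposite directions. Rps6 (Entrez Gene 20104), the small subunit protein that S6 kinases phosphorylate downstream of mTOR, read 7.96, 8.01, 8.08 and 8.08 under VPA and 7.34, 7.51, 7.59 and 7.60 under PBS. All of the treated arrays lay above the vehicle arrays, and the rise was 0.52 ± 0.10 (SE, n = 4 and 4, 1.44-fold, adjusted p = 2.13e-05 by limma). Rpl23 (Entrez Gene 65019), a large subunit protein that also binds the p53 regulator Mdm2, read 5.74, 6.04, 6.04 and 6.19 against 6.45, 6.47, 6.58 and 6.65. The groups did not overlap, and Rpl23 fell by 0.53 ± 0.11 (SE, adjusted p = 6.70e-05 by limma).

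Rpl14 (Entrez Gene 67115), of the large subunit, read 4.81, 4.90, 4.94 and 5.01 after 1 day of VPA and 4.41, 4.51, 4.60 and 4.71 in vehicle. These groups did not overlap either, with a rise of 0.36 ± 0.10 (SE, adjusted p = 0.00880 by limma). Rpl22 (Entrez Gene 19934), a large subunit protein that cells can grow without, read 6.33, 6.53, 6.54 and 6.58 against 6.59, 6.67, 6.88 and 6.96. The highest treated array lay just under the lowest vehicle array, and the fall was 0.28 ± 0.08 (SE, adjusted p = 0.00867 by limma). Rpl7l1 (Entrez Gene 66229), a relative of Rpl7, read 6.21, 6.48, 6.59 and 6.62 against 5.95, 6.17, 6.28 and 6.41. Its groups overlapped, and the rise was 0.27 ± 0.10 (SE, adjusted p = 0.0384 by limma).

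Rps6 and Rpl23 kept their calls with each of the 8 arrays left out in turn (adjusted p up to 0.000563 and 0.00238 by limma) and under all 6 other settings. Rpl14 was lost without vehicle array 003 (adjusted p = 0.0528), Rpl22 without vehicle array 025 (0.0840) or treated array 079 (0.0726), and Rpl7l1 without any of vehicle arrays 003 and 082 and treated arrays 023, 080 and 095 (0.0692 to 0.255). In the same livers 2 of 4 measured neutrophil markers rose, S100a8 by 2.14 ± 0.59 and S100a9 by 2.42 ± 0.63 (SE), the mean of the 4 ran from 3.20 to 4.80 on the VPA arrays and from 2.86 to 3.03 on the vehicle arrays, and Ngp and Mpo were below the array median. Of 8 hepatocyte markers Alb fell by 0.14 ± 0.03, Ttr by 0.20 ± 0.03 and Serpina1b by 0.13 ± 0.04, and Fgb rose by 0.53 ± 0.06. Of other markers the endothelial Clec4g rose by 0.39 and the stellate Des by 0.30, and the stellate Col3a1 fell by 0.53, the lymphocyte Cd79b by 0.47 and the pancreatic Cela1 by 0.71. The part of these markers in the ribosomal protein changes was not tested, and in tissue RNA fewer cells of a type cannot be told apart from less RNA per cell.

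On day 4 of VPA only Rpl5 was called (4.17% of the 24, where 2.36% of all genes were called). Rpl5 (Entrez Gene 100503670), which carries ribosomal RNA of the large subunit into the particle and can bind Mdm2, read 5.63, 5.72, 5.76 and 5.92 against 5.22, 5.30, 5.41 and 5.49. No treated array overlapped the vehicle arrays, and the rise was 0.40 ± 0.11 (SE, 1.32-fold, adjusted p = 0.0207 by limma). The call was lost without vehicle array 040 or 044 or treated array 068 or 092 (adjusted p from 0.0572 to 0.114). Rpl14 stood at 0.28 ± 0.10 (adjusted p = 0.153, groups without overlap) and Rps6 at 0.21 ± 0.10 (adjusted p = 0.319), and neither passed. In these livers 4 of 8 Kupffer cell markers rose (Vsig4 by 0.95 ± 0.19, Cd5l, Csf1r and Clec4f), the mean of the 8 ran from 6.07 to 6.85 under VPA and from 5.27 to 6.62 in vehicle, and all 8 lay above the array median. The erythroid Alas2 fell by 0.91 ± 0.20 (SE), with the mean of the 2 erythrocyte markers from 4.49 to 4.92 under VPA and from 5.15 to 5.23 in vehicle. The endothelial Clec4g rose by 0.46, the stellate Dcn by 0.37, and Cela1 fell by 0.96. The part of these cell markers in the Rpl5 change was not tested.

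**Figure D2:**
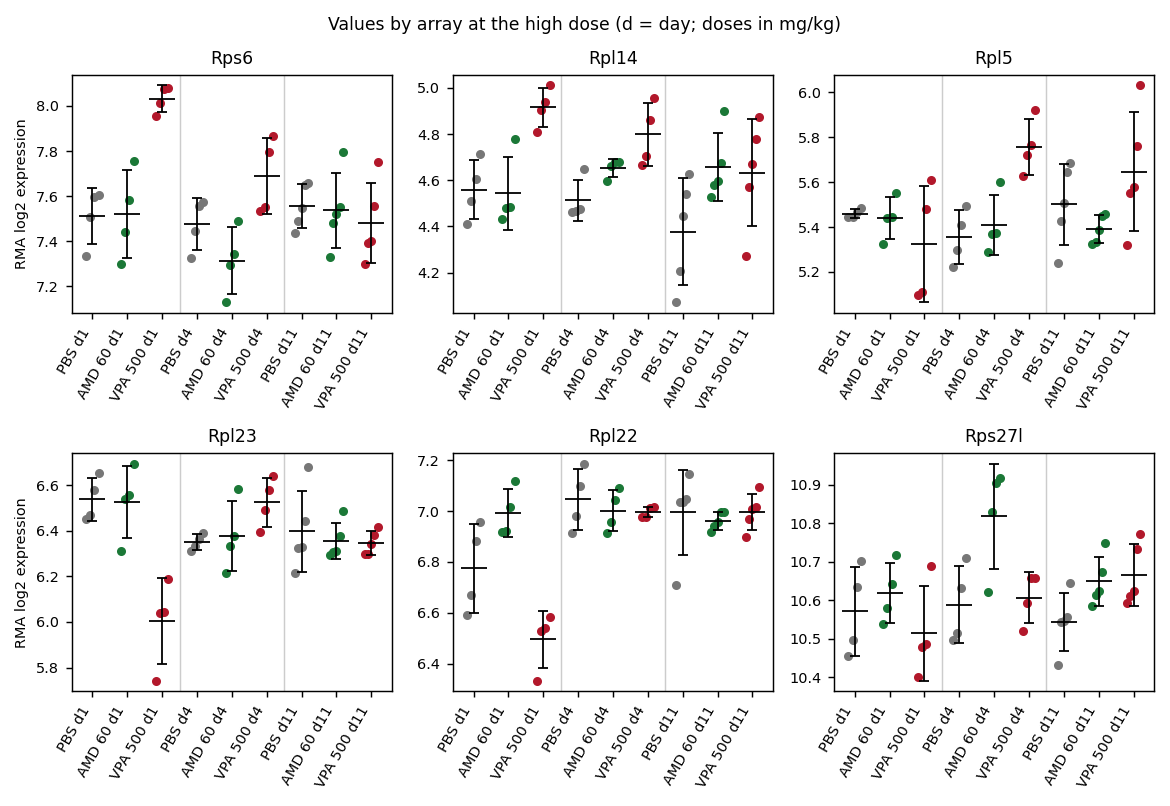
RMA log2 expression on each array (points) with group mean and SD (bars) for 6 ribosomal protein genes in the PBS, AMD 60 and VPA 500 groups on days 1, 4 and 11. The VPA arrays of day 1 stand above all others of Rps6, at 7.96 to 8.08, and below all others of Rpl23 and Rpl22, between 5.74 and 6.19 and between 6.33 and 6.58.

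On day 11 Rpl7l1 and Rpl15 were called under both AMD and VPA, which share their 5 vehicle arrays, and Rpl14 under AMD alone. At the high dose of AMD 3 of the 24 genes were called (12.5%, all genes 7.05%) and at that of VPA 2 (8.33%, all genes 9.03%). At 250 mg/kg of VPA 1 was called (4.17%, all genes 4.26%), and at 125 mg/kg of VPA, 20 mg/kg and 6.7 mg/kg of AMD 0 were called (all genes 0.0547%, 0.322% and 0%). Without an adjustment 2, 2 and 1 of the 24 had a p under 0.05 in those last groups (limma).

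Rpl7l1 read 6.07, 6.26, 6.29, 6.30 and 6.35 in the vehicle livers of day 11. Under 60 mg/kg of AMD it read 5.87, 5.88, 5.94, 5.96 and 5.96, below every vehicle array, a fall of 0.33 ± 0.09 (SE, n = 5 and 5, adjusted p = 0.00598 by limma). Under 500 mg/kg of VPA it read 5.91, 5.92, 5.97, 5.99 and 6.13, of which 1 array overlapped the vehicle arrays, and it fell by 0.27 ± 0.09 (SE, adjusted p = 0.0295 by limma). Under 250 mg/kg of VPA the values were 5.88, 5.93, 5.97, 5.97 and 6.01, with no overlap, and Rpl7l1 fell by 0.30 ± 0.09 (SE, adjusted p = 0.0227 by limma). At 20 mg/kg of AMD it read 5.65, 5.81, 5.91, 6.08 and 6.16, and the difference of −0.34 ± 0.09 missed the threshold (adjusted p = 0.0530). The AMD 60 call was kept with each of 10 arrays left out (adjusted p up to 0.0232) and under all 6 other settings. The VPA 500 call was lost without any of vehicle arrays 002, 032, 073 and 090 and treated arrays 006, 028 and 081 (0.0507 to 0.0849), and the VPA 250 call without vehicle array 032 or 090 or treated array 037 (0.0544 to 0.0724). On day 4 Rpl7l1 read lower in PBS than on day 11, at 5.88, 5.92, 6.05 and 6.18. Under AMD 60 on day 4 it read 5.93, 5.96, 5.98 and 6.23. The part of the vehicle level in the day 11 falls was not tested.

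Rpl15 (Entrez Gene 66480), a large subunit protein whose loss causes an inherited anaemia in humans, read 7.43, 7.54, 7.61, 7.63 and 7.99 in vehicle. It read 7.76, 7.96, 7.96, 7.97 and 8.13 under 60 mg/kg of AMD, a rise of 0.32 ± 0.09 (SE, adjusted p = 0.0125 by limma). Under 500 mg/kg of VPA the arrays gave 7.85, 7.92, 7.94, 7.97 and 8.08, a rise of 0.31 ± 0.09 (SE, adjusted p = 0.0126 by limma). Vehicle array 090, at 7.99, was the one that overlapped the treated arrays in both, and without it the differences were 0.40 and 0.40. Without vehicle array 002, the lowest at 7.43, they were 0.26 and 0.26 and both calls were lost (adjusted p = 0.0752 and 0.0693), and the AMD call was also lost without treated array 033 (0.0611). The fitted Rpl15 value was above vehicle in all 9 treated groups of day 11, from 0.10 at 20 mg/kg of AMD to 0.32. At 14.8, 44 and 133 mg/kg of TET, which share a vehicle of their own, the differences were 0.19, 0.29 and 0.27. Rpl15 read 7.26, 7.57, 7.60, 7.63 and 7.69 in the TET vehicle and 7.77, 7.79, 7.83, 7.84 and 7.98 under 44 mg/kg of TET. Those groups did not overlap, yet the adjusted p was 0.197, and of the 9 groups only AMD 60 and VPA 500 passed. For Rpl15 the TET vehicle of day 11 had the lowest mean of all 21 groups, with array 076 (7.26) far from its others. The highest mean was that of AMD 60 on day 4. The PBS vehicle read 7.43, 7.80, 7.81 and 7.84 on day 1 and 7.53, 7.76, 8.05 and 8.08 on day 4. In the TET vehicle of day 4 it read 7.76, 7.81, 7.93 and 7.95. The part of the vehicle level in the day 11 differences was not tested.

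Rpl14 read 4.07, 4.21, 4.45, 4.54 and 4.63 in vehicle on day 11 and 4.53, 4.58, 4.60, 4.68 and 4.90 under 60 mg/kg of AMD. The groups overlapped, and the rise of 0.28 ± 0.09 (SE) was at the edge of the threshold (adjusted p = 0.04997 by limma). It was lost without any of vehicle arrays 002, 020 and 090 and treated arrays 012, 031, 039 and 062 (adjusted p from 0.0542 to 0.257). The Rpl14 differences under 250 and 500 mg/kg of VPA were 0.28 and 0.26 and missed the threshold (adjusted p = 0.0671 and 0.0698). For Rpl14 the PBS vehicle of day 11, the control of all these differences, had the lowest mean of all 21 groups. On day 4 Rpl14 read 4.46, 4.47, 4.48 and 4.65 in PBS and 4.60, 4.66, 4.68 and 4.68 under AMD 60. The part of the low vehicle in the day 11 differences was not tested. Alas2, the erythroid enzyme of haem synthesis and 1 of 2 erythrocyte markers measured, fell by 0.69 ± 0.18 in AMD 60 and by 0.89 ± 0.18 in VPA 500 (SE), Slc4a1 was below the array median, and the mean of the 2 ran from 4.81 to 5.01 under AMD 60, from 4.48 to 5.01 under VPA 500 and from 5.05 to 5.31 in vehicle. Under VPA 250 Alas2 fell by 1.16 ± 0.18 and the mean ran from 3.87 to 4.92. Under AMD 60 Cela1 also fell by 1.01 ± 0.19 (1 of 4 pancreatic markers, their mean from 3.58 to 3.78 against 3.85 to 4.05), the endothelial Clec4g by 0.40 ± 0.07 (1 of 6, mean from 4.99 to 5.18 against 5.22 to 5.32), the stellate Dcn by 0.23 ± 0.08 (1 of 6) and, of 8 hepatocyte markers, Fgb by 0.24 ± 0.06 and Ttr by 0.10 ± 0.03. Apoa1 fell by 0.17 under VPA 500 and by 0.13 under VPA 250, where the endothelial Stab2 rose by 0.33. The part of these markers in the day 11 calls was not tested.

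**Figure D3:**
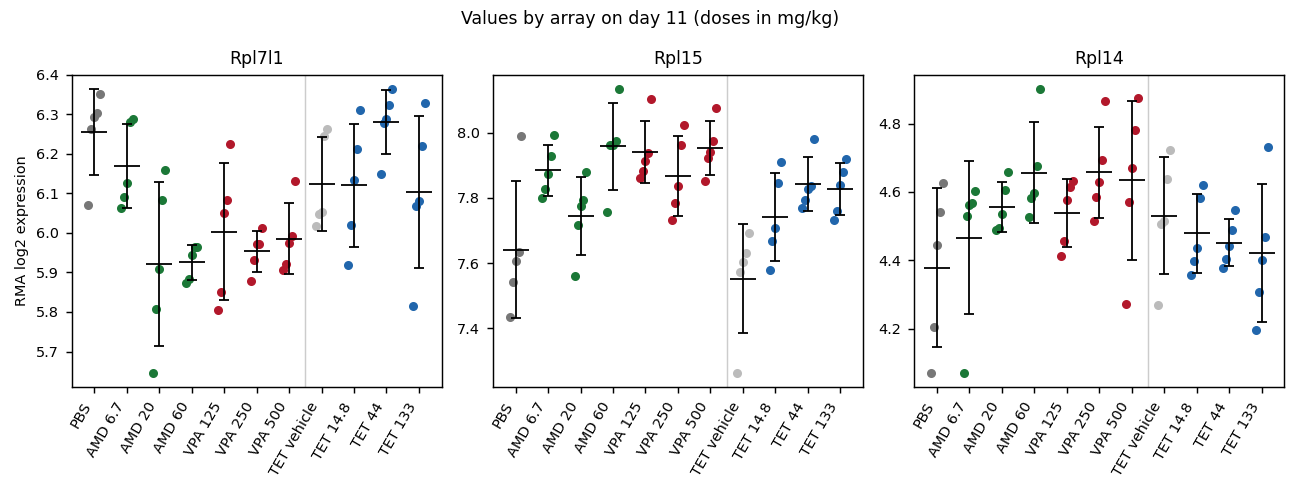
RMA log2 expression of Rpl7l1, Rpl15 and Rpl14 on each array of day 11 (points) with group mean and SD (bars), by drug and dose in mg/kg. Rpl7l1 at AMD 60 lies between 5.87 and 5.96, under all 5 PBS arrays, while 1 PBS array of Rpl15 at 7.99 reaches the treated range.

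AMD gave fewer calls before day 11. On day 1 none of the 24 genes was called by limma (all genes 0.796%), with 1 at an unadjusted p under 0.05, Rpl22 at 0.22 ± 0.08 (adjusted p = 0.281). On day 4 Rps27l was called (4.17%, all genes 6.21%). Rps27l (Entrez Gene 67941), a paralog of Rps27 that p53 can induce, read 10.62, 10.83, 10.90 and 10.92 against 10.50, 10.51, 10.63 and 10.71, so that 1 treated array lay in the vehicle range. The rise was 0.23 ± 0.07 (SE, 1.17-fold, adjusted p = 0.0309 by limma), and it was lost without any of treated arrays 017, 053 and 069 and vehicle arrays 040 and 087 (0.0705 to 0.134). In the same livers Alas2 fell by 0.66 ± 0.20 (SE) and the mean of the 2 erythrocyte markers ran from 4.75 to 4.94, against 5.15 to 5.23 in vehicle. The lymphocyte Ighm rose by 1.51 ± 0.41 (1 of 7 measured, their mean from 3.14 to 3.55 against 3.02 to 3.20), the pancreatic Cela1 fell by 1.16 ± 0.22 (1 of 4, their mean from 3.54 to 3.74 against 3.86 to 3.95, the other 3 below the array median) and the hepatocyte Fgb fell by 0.23 ± 0.06 (1 of 8). The part of these markers in the Rps27l change was not tested. Rpl4, which lines the tunnel through which the new protein leaves, stood at 0.18 ± 0.06 (adjusted p = 0.0582) and Rps27 itself at −0.28 with a 95% interval from −0.65 to 0.08. Rps6 read 7.13, 7.29, 7.34 and 7.49 against 7.32, 7.45, 7.56 and 7.57, a difference of −0.16 ± 0.10 that did not pass.

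TET moved no ribosomal protein gene past the threshold. By limma 0 of the 24 were called at 133 mg/kg on day 1 (all genes 0.65%), on day 4 (0%) and on day 11 (0%), at 14.8 mg/kg (0%) and at 44 mg/kg (0.0243%). At an unadjusted p under 0.05 the numbers were 3, 0, 1, 1 and 4. Over those comparisons the outermost ends of the 95% intervals of any of the 24 genes were −0.78 (day 1) and 0.92 (44 mg/kg). A change within a gene's own interval could have gone unseen. The intervals were narrower for genes with less spread, such as Rpl4 (SD 0.08 within groups). The outermost values belonged to Rps4l, a rodent relative of Rps4x, at 0.46 ± 0.23 under 44 mg/kg and 0.36 ± 0.25 on day 1, and to Rps27 at −0.42 ± 0.18 on day 1. Rps4l also had the largest spread between arrays of a group (SD 0.37), and under 133 mg/kg on day 11 its 5 arrays ran from 5.82 to 7.63.

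**Figure D4:**
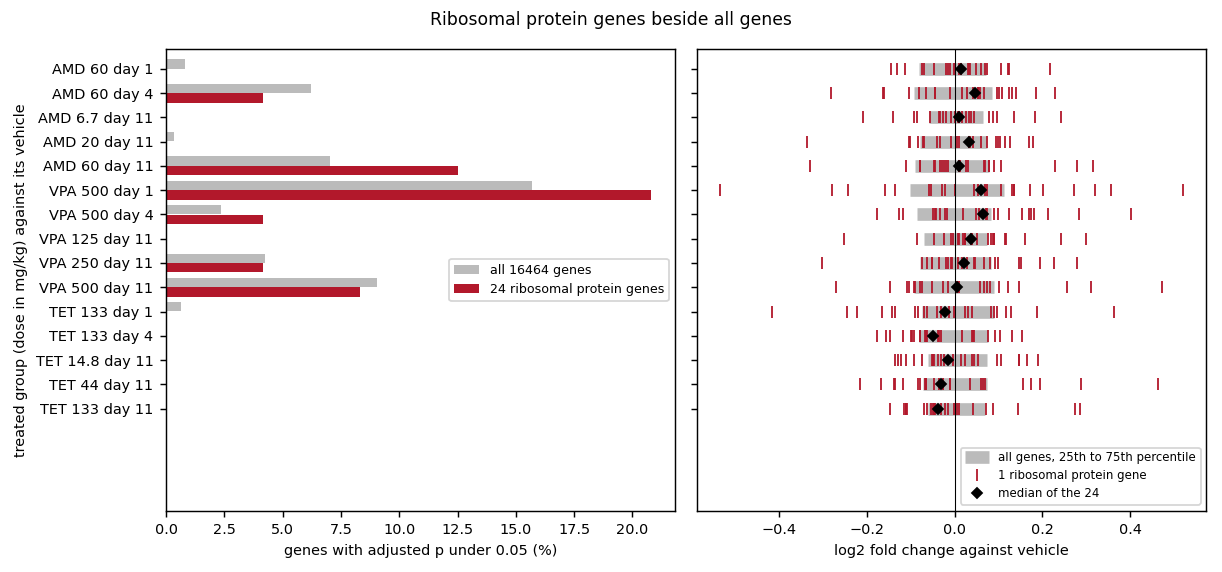
Left: percent of all 16464 genes (grey) and of the 24 ribosomal protein genes (red) with an adjusted p under 0.05 in each treated group. Right: log2 fold change of each of the 24 (red ticks), their median (black) and the 25th to 75th percentile of all genes (grey); the medians lie between −0.05 and 0.06.

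Over the dose steps of day 11, from vehicle to the high dose, the AMD trend was called for 2 of the 24 genes (all genes 7.02%). Rpl7l1 fell by 0.12 ± 0.03 a step (SE, adjusted p = 0.000705 by limma), with group means of 6.26 in vehicle, 6.17, 5.92 and 5.93, so that the means of 20 and 60 mg/kg stood level, and Rpl14 rose by 0.09 ± 0.03 (adjusted p = 0.0356). The VPA trend was called for 3 (all genes 9.94%): Rpl14 at 0.09 ± 0.03, Rpl15 at 0.09 ± 0.03 and Rpl7l1 at −0.09 ± 0.03 a step (adjusted p = 0.0370, 0.0318 and 0.0256). Only the AMD trend of Rpl7l1 kept its call without each single array (adjusted p up to 0.00348). The AMD trend of Rpl14 was lost without vehicle array 002 or 020 or treated array 015, 031 or 039 (adjusted p up to 0.195), and its VPA trend without vehicle array 002 or 020 or treated array 028, 049, 067 or 078 (up to 0.197). The VPA trend of Rpl15 was lost without vehicle array 002, 020, 032 or 073 or treated array 049 or 081 (up to 0.127), and that of Rpl7l1 without vehicle array 032, 073 or 090 or treated array 006 or 081 (up to 0.0705). The TET trend called 0 of the 24 by limma (all genes 0%), with 1 at an unadjusted p under 0.05.

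The effect of VPA differed between days for some of these genes, as it did for others of all genes. From day 1 to day 4 it differed for 2 of the 24 (8.33%, all genes 6.07%): Rpl23, from −0.53 to 0.18, a difference of 0.71 ± 0.15 (SE, adjusted p = 0.000676 by limma), and Rpl5, from −0.14 to 0.40, a difference of 0.54 ± 0.15 (adjusted p = 0.0169). Between days 1 and 11 it differed for 5 (20.8%, all genes 12.3%). Rps6 went from 0.52 to −0.08, a difference of −0.60 ± 0.13 (adjusted p = 0.000426), and Rpl7l1 from 0.27 to −0.27, a difference of −0.54 ± 0.13 (adjusted p = 0.00124), so Rpl7l1 was called in opposite directions on the same drug and dose. Rpl23 differed by 0.48 ± 0.14 (adjusted p = 0.0133), Rps27, a zinc finger protein of the small subunit, by 0.72 ± 0.25 (0.0404), and Rps14, a small subunit protein lost in a form of human anaemia, by −0.35 ± 0.11 (0.0212). Between days 4 and 11 it differed for Rpl15 alone (4.17%, all genes 2.06%), from −0.18 to 0.31, by 0.49 ± 0.13 (adjusted p = 0.0305). With single arrays left out, the differences of Rps6 and Rpl7l1 and that of Rpl23 between days 1 and 4 kept their calls (adjusted p up to 0.00295, 0.0113 and 0.00495). That of Rpl5 was lost without vehicle array 040 or VPA array 023, 079 or 092 (up to 0.0629), and that of Rpl23 between days 1 and 11 without VPA array 079 (0.0664). The difference of Rps14 was lost without vehicle array 003 or 082 or VPA array 006, 080 or 081 (up to 0.0769), that of Rps27 without vehicle array 003, 020, 025, 032 or 073 or VPA array 078, 079 or 095 (up to 0.107), and that of Rpl15 without vehicle array 002, 032, 040 or 087 or VPA array 049, 068 or 081 (up to 0.105).

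For AMD the differences of effect between days called 0 of the 24 by limma (all genes 0.541% for day 4 less day 1, 0.109% for day 11 less day 1 and 0% for day 11 less day 4), with 2, 2 and 1 at an unadjusted p under 0.05. For TET they also called 0 (all genes 0%, 0% and 0%), with 1, 0 and 1.

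A direct comparison of the 2 drugs at their high doses, 60 mg/kg of AMD less 500 mg/kg of VPA, needs no vehicle, though the doses differ. On day 1 it called 5 of the 24 (all genes 16.2%), which are the 5 of VPA against vehicle, with the same VPA arrays in both: Rpl23 at 0.52 ± 0.11 and Rpl22 at 0.50 ± 0.08 were higher under AMD, and Rps6 at −0.51 ± 0.10, Rpl7l1 at −0.42 ± 0.10 and Rpl14 at −0.37 ± 0.10 were higher under VPA. The AMD arrays of Rpl22 read 6.92, 6.92, 7.02 and 7.12, all above the VPA arrays, and its adjusted p of 9.60e-07 was the smallest of the 24 in any comparison. All 5 calls held without each single array (adjusted p up to 0.0310). On day 4 it called 3 (all genes 8.55%): Rps6 at −0.37 ± 0.10 (adjusted p = 0.00598), Rpl5 at −0.35 ± 0.11 (0.0255) and Rps27l at 0.21 ± 0.07 (0.0436). All of them were lost without VPA array 068 (0.0517, 0.0561 and 0.0546). Rpl5 was also lost without VPA array 092 or AMD array 017, 053 or 093 (up to 0.118), and Rps27l without VPA array 004, 008 or 092 or AMD array 017, 053 or 069 (up to 0.170). On day 11 only Rps14 was called (all genes 8.06%), at 9.91, 9.94, 10.01, 10.01 and 10.10 under AMD and 9.49, 9.51, 9.89, 9.91 and 9.97 under VPA, a difference of 0.24 ± 0.07 (SE, adjusted p = 0.0263 by limma) that was lost without VPA array 006 or 081 (0.170 and 0.178) or AMD array 033 or 039 (0.0844 and 0.0529).

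The vehicles were compared as a background. On day 1 Rpl7l1 was lower in the TET vehicle than in PBS (1 of 24, all genes 0.0911%), at 5.61, 5.82, 5.84 and 5.86 against 5.95, 6.17, 6.28 and 6.41, a difference of −0.42 ± 0.10 (SE, adjusted p = 0.0423 by limma). That difference between vehicle groups was at least as large as the called drug effects on Rpl7l1 against vehicle. It was lost without PBS array 025, 050 or 082 or any of TET vehicle arrays 027, 034, 038 and 077 (adjusted p from 0.0626 to 0.348). On days 4 and 11 0 were called by limma (all genes 0.0121% and 0%), with 0 and 1 at an unadjusted p under 0.05. From day 1 to day 11 0 changed in PBS and 0 in the TET vehicle (all genes 0% and 0%), with 1 and 2 at an unadjusted p under 0.05.

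Of the small subunit genes, Rps3, Rps9, Rps15, Rps15a and Rpsa were called in none of all 35 comparisons made. Rps15a and Rpsa were close to background, so the lack of a call says little about their RNA. Rpsa, also known as the laminin receptor, ran from 2.29 to 3.04 over all arrays, and its largest treated difference was 0.19. Rps3, at the entry of the mRNA channel, ran from 3.43 to 4.12, with differences from −0.17 to 0.10. Rps9 ran from 10.31 to 11.13, Rps15 from 11.03 to 11.58 and Rps15a from 2.49 to 3.11, and the differences of these 3 lay between −0.16 and 0.17. Rps27 and Rps14 passed in no treated group: under 500 mg/kg of VPA on day 11 Rps27 read 4.05, 4.15, 4.16, 4.17 and 4.64 against 3.55, 3.61, 3.62, 3.83 and 4.18, a difference of 0.47 ± 0.16 (adjusted p = 0.0538), and the Rps14 differences lay between −0.15 and 0.20.

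Of the large subunit genes, Rpl4, Rpl8, Rpl21, Rpl26 and Rpl31 were called in no comparison. Rpl4 ran from 12.29 to 12.73 and Rpl26 from 11.43 to 11.92 over the 95 arrays, with within-group SDs of 0.08 and 0.10. Rpl31 had a treated range of −0.22 to 0.32, with the highest under VPA on day 1 (0.32 ± 0.14, adjusted p = 0.109), and lay above vehicle in all 9 treated groups of day 11, by 0.06 to 0.24. The AMD and VPA groups among them share the PBS vehicle arrays and the TET groups share the TET vehicle arrays, as for Rpl15. They are therefore not 9 separate results. Rpl8 lay between −0.15 and 0.13 and Rpl21 between −0.18 and 0.13. The signals of Rpl21, Rpl3l and Rpl39l were close to background, so the lack of a call says little about their RNA. Among the paralogs, Rpl3l (in mouse a protein of striated muscle) and Rpl39l (of testis) stayed between −0.16 and 0.18 in all treated groups, and Rps19bp1, which binds Rps19, between −0.07 and 0.18.

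Other genes of ribosome production were called on day 1 of VPA too, and none of these calls was repeated with an array left out. Of 34 measured ribosome assembly factors 6 fell and 0 rose (median −0.15, all genes 0.01): Gnl3 (nucleostemin) by 0.80 ± 0.12, the kinase Riok2 by 0.67 ± 0.12, Wdr43 by 0.53 ± 0.15, Nop10, Dkc1 and Ncl. Of 11 genes of RNA polymerase I transcription, which makes the ribosomal RNA, 2 fell, Rrn3 by 0.76 ± 0.22 and the subunit Polr1d by 0.42 ± 0.08. Of 19 translation factors 4 rose and 2 fell: the cap-binding Eif4e rose by 0.54 ± 0.11, Eif3b by 0.37 ± 0.11 and Eif3i by 0.28 ± 0.05, with Eif3f, while Eif4b fell by 0.50 ± 0.09 and Eif5 by 0.26 ± 0.09. Of 17 genes around mTOR, 1 rose, the mTOR inhibitor Ddit4 by 1.20 ± 0.21, and 4 fell, the inhibitor Deptor by 1.09 ± 0.12, Larp4 by 0.45 ± 0.16, Rheb (the activator of mTOR) by 0.33 ± 0.08, and Mtor. Snhg1, a noncoding RNA with a TOP start and 1 of 3 such genes measured, fell by 1.09 ± 0.25. The shares called were 17.6% of the assembly factors, 31.6% of the translation factors and 29.4% of the mTOR genes, beside the 15.7% of all genes. All errors are SE of the limma fit.

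On day 4 of VPA, Riok2 was the 1 assembly factor called (2.94%, all genes 2.36%), lower by 0.43 ± 0.12, and 0 translation factors, 0 polymerase I genes and 0 mTOR genes were called by limma, with 6, 2 and 3 at an unadjusted p under 0.05. On day 11 of VPA 500, 3 of 34 assembly factors fell (8.82%, all genes 9.03%, median −0.12): Utp4 by 0.54 ± 0.14, Tsr1 by 0.47 ± 0.15 and Gnl3 by 0.33 ± 0.11. Rrn3 fell by 0.71 ± 0.20, Eif3c by 0.21 ± 0.06 and Mtor by 0.24 ± 0.08, while Ddit4 rose by 0.60 ± 0.19, Sesn1 by 0.51 ± 0.11, Tsc1 by 0.29 ± 0.10 and Snhg1 by 0.87 ± 0.23. These were 4 of 17 mTOR genes (23.5%), 1 of 11 polymerase I genes (9.09%), 1 of 19 translation factors (5.26%) and 1 of 3 TOP genes. Under AMD 3 of 34 assembly factors were called on day 4 (8.82%, all genes 6.21%) and 1 on day 11 (2.94%, all genes 7.05%). On day 4 the small nucleolar RNA proteins Nhp2 and Nop10 rose by 0.67 ± 0.16 and 0.26 ± 0.07 and Heatr1 fell by 0.32 ± 0.08. On day 11 Heatr1 fell by 0.23 ± 0.08 and Eif3c, 1 of 19 translation factors (5.26%), by 0.20 ± 0.06. The TOP mRNA Nap1l1, 1 of 3 measured, rose by 0.55 ± 0.10 on day 4 and 0.44 ± 0.09 on day 11. Under TET on day 1 Eif5 fell by 0.38 ± 0.09 and Gnl3 by 0.50 ± 0.12. These were 1 of 19 translation factors (5.26%) and 1 of 34 assembly factors (2.94%), where 0.65% of all genes were called.

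The ribosome of mitochondria, whose proteins come from other nuclear genes, was set beside the cytosolic one. Of its 66 measured genes 13 rose and 0 fell under AMD on day 4 (19.7%, all genes 6.21%, median 0.16), among them Mrpl54 by 0.54 ± 0.17, Mrpl16 by 0.44 ± 0.08 and Mrpl45 by 0.43 ± 0.11. On day 11 of AMD 60 it was 11 and 0 (16.7%, all genes 7.05%, median 0.11), with Mrpl45 highest at 0.65 ± 0.10, Mrps9 at 0.35 ± 0.08 and Mrpl40 at 0.31 ± 0.07. Under VPA 500, 10 rose and 5 fell on day 1 (22.7%, all genes 15.7%), 1 rose on day 4 (1.52%, all genes 2.36%), and 15 rose and 3 fell on day 11 (27.3%, all genes 9.03%, median 0.11), with Mrps35 higher by 0.49 ± 0.08 and Mrpl20 lower by 0.33 ± 0.08. In those same comparisons the 18 proteins of the cytosolic ribosome had medians of 0.05, 0.01, 0.07, 0.08 and 0.01. The difference between the lists was not tested.

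**Figure D5:**
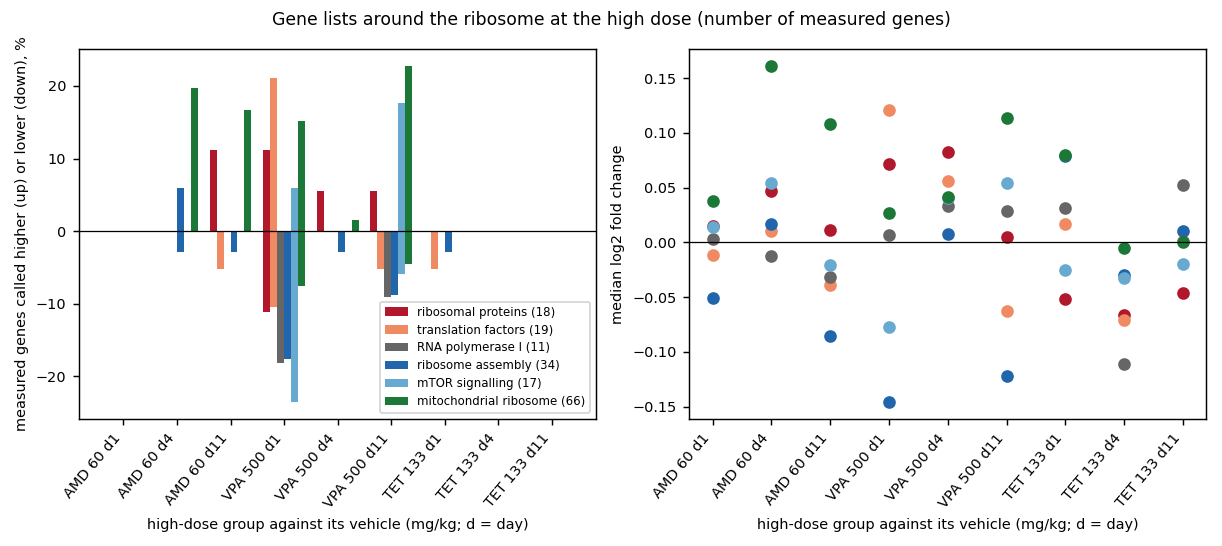
Left: percent of measured genes called higher (above 0) or lower (below 0) in 6 lists at the high dose of each drug on days 1, 4 and 11. Right: median log2 fold change of each list; the ribosome assembly factors lie lowest on day 1 of VPA, at −0.15, and the mitochondrial ribosome highest on day 4 of AMD, at 0.16.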

How the data were processed

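The log2 values were deposited by the authors and come from RMA, a robust average over probes, per the submitters' processing notes. Its version and the probe set definition are not given in the sources used here. There were 17306 probe sets: 16464 with 1 symbol, 0 with several and 842 with none, and 1 probe set a gene. All 16464 matched RefSeq by Entrez ID with 0 symbols changed. The values ran from 1.68 to 13.87.

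All 95 arrays entered 1 fit with 21 group means in limma 3.58.1 (R 4.3.3; 74 residual degrees of freedom), with moderated tests in 35 comparisons. The p-values were adjusted over all genes of a comparison (Benjamini-Hochberg), with calls under 0.05. Intervals are 95%. Scripts were tested on simulated data. Figures used matplotlib 3.10.9 in Python 3.11.15.

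The members, gene lists and alternatives were chosen with earlier results of these data known. Named are the called genes with the largest changes (up to 8 a direction at the high dose, 5 elsewhere, 3 for other lists), Rps6, Rpsa, all paralogs, and the 5 brightest and 5 dimmest genes. The alternatives were a fit of only the arrays compared, array weights, dim genes left out, quantile normalization, blocks of 24 sample numbers, a variance trend with a robust prior, no paralogs, and each array left out. The number of arrays limits the precision.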

Additional observations from a re-analysis of the deposited data

Results flagged for a closer look

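The VPA effect differed between days by a test of the difference for Rpl23 (0.71 for day 4 less day 1 and 0.48 for day 11 less day 1), Rpl5 (0.54 for day 4 less day 1), Rpl7l1 (−0.54), Rps14 (−0.35), Rps27 (0.72) and Rps6 (−0.60, all for day 11 less day 1) and Rpl15 (0.49 for day 11 less day 4).

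In 504 pairs of a gene and a group 1 array lay far from the others in 35 (6.94%), where chance gives about 1 in 20. Among the genes called in a treated group, Rpl14 was low on array 015 of AMD 6.7 on day 11 (4.07) and array 035 of the TET vehicle on day 4 (4.25), and high on array 045 of AMD 60 on day 1 (4.78) and array 041 of PBS on day 4 (4.65). Rpl15 was low on array 025 of PBS on day 1 (7.43) and array 076 of the TET vehicle on day 11 (7.26), and high on array 011 of TET 133 on day 1 (7.99). Rpl22 was low on array 032 of PBS on day 11 (6.71) and array 067 of VPA 250 (6.78), where Rpl23 was high (6.41). Rpl7l1 was high on array 093 of AMD 60 on day 4 (6.23) and low on array 027 of the TET vehicle on day 1 (5.61), and Rps27l was low on array 038 of that vehicle (10.60).

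Of the other genes, Rpl26 was low on array 093 of AMD 60 on day 4 (11.44), Rpl31 high on array 062 of AMD 60 on day 11 (5.33), and Rpl21 high on array 072 of AMD 6.7 (3.01) and low on array 036 of TET 14.8 (2.54), where Rpl39l was high (2.65). Rpl3l was low on array 033 of AMD 60 on day 11 (2.20) and high on array 089 of TET 44 (3.10) and array 068 of VPA 500 on day 4 (2.72). Rpl4 was low on array 096 of TET 133 on day 1 (12.40), array 056 of VPA 125 (12.43) and array 079 of VPA 500 on day 1 (12.60). Rpl8 was high on array 057 of TET 133 on day 1 (10.48) and low on array 006 of VPA 500 on day 11 (9.84). Rps14 was high on array 027 of the TET vehicle on day 1 (9.93), Rps15a on array 064 of AMD 60 on day 1 (3.01) and array 052 of TET 44 (2.89), Rps27 on array 078 of VPA 500 on day 11 (4.64), Rps9 on array 010 of TET 44 (10.88) and Rps4l on array 083 of AMD 20 (7.43). Rps4l was low on array 085 (6.25) and Rps19bp1 on array 035 (6.49) of the TET vehicle on day 4, and Rpsa on array 069 of AMD 60 on day 4 (2.39).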

How the results depend on the processing

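No direction of the 36 calls reversed under any alternative, and the members' median log2 fold change moved in none of 183 repeats by more than the SD between arrays of 0.0479. That limit is about as large as the medians themselves, which lay between −0.05 and 0.06, so it cannot show that they were stable. For VPA 500 on day 11 the median was 0.005, and with an array left out it ran from −0.026 to 0.052. Of the 36 calls, 35 were kept with array weights, 36 without dim genes, 30 after quantile normalization, 32 with blocks of 24 sample numbers, 35 with a variance trend and 18 with only the arrays compared, where fewer arrays estimate the spread. With an array left out 330 repeats kept the call and 108 lost it, and of the 13 calls against vehicle 3 were kept without every single array and under every setting (Rps6 and Rpl23 in VPA on day 1, Rpl7l1 in AMD 60 on day 11).

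Counts of called members moved as follows; the cause was not tested. With only the arrays compared, AMD day 4 went from 1 to 0, AMD 60 day 11 from 3 to 1, VPA day 1 from 5 to 3, VPA day 4 from 1 to 0, VPA 250 from 1 to 0, VPA 500 day 11 from 2 to 1, the AMD and VPA trends from 2 and 3 to 1 and 1, the VPA differences of day 4 less 1 and day 11 less 4 from 2 and 1 to 1 and 0, AMD less VPA on day 11 from 1 to 0 and the vehicles of day 1 from 1 to 0. AMD day 4 gave 2 with array weights, without dim genes and with a variance trend, and 0 after quantile normalization and without paralogs. AMD 20 gave 1, not 0, with array weights, without dim genes, after quantile normalization and with blocks. Without dim genes VPA 250 gave 2 and VPA 500 day 11 gave 4, and without paralogs 0 and 1. Quantile normalization gave 0 for the VPA difference of day 11 less 4 and 2 for AMD less VPA on day 11. Blocks gave 1 for the AMD trend and 0 for the vehicles of day 1.

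With an array left out the counts ran from 0 to 1 for AMD day 4, AMD 20, VPA day 4, the VPA difference of day 11 less 4, AMD less VPA on day 11 and the vehicles of day 1, from 1 to 3 for AMD 60 day 11, the AMD trend and the VPA difference of day 4 less 1, from 3 to 6 for VPA day 1 and the VPA difference of day 11 less 1, from 1 to 2 for VPA 250 and VPA 500 day 11, from 1 to 4 for the VPA trend and from 0 to 2 for AMD less VPA on day 4. No paired analysis was possible because no label pairs the arrays.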
